A study of Mus musculus with 12 samples.

Results

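The strain difference at E13.5 was measured between 2 arrays of M19 male genital ridges and 2 arrays of 129/Sv (129) male genital ridges, 4 of the 12 arrays of the series. The arrays were chosen by their titles, and all 45037 probe sets other than the controls were used, with 18145 genes represented by their brightest probe set. M19 is the strain 129.MOLF-Chr 19, in which chromosome 19 comes from MOLF, a wild-derived Japanese strain, and all other chromosomes come from 129. The other 8 arrays hold the same strains at E15.5 and E17.5. Each group pooled whole testes of male embryos, and the labels give no treatment. All cell types of the testis are therefore mixed in each value, and a difference in cell number and one in RNA per cell cannot be told apart.

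Male M19 mice are known for frequent testicular germ cell tumours, which start from primordial germ cells around the time when germ cells settle in the fetal testis. In normal development the male germ cells then leave the cell cycle, lower their pluripotency genes, and raise the genes that silence transposons. These silencing genes act through piRNAs, small RNAs bound by PIWI proteins, and through new DNA methylation. The study compared the strains at each stage for differentially expressed genes, and its text names Sf1, Pum3 and Cox15, under older symbols for the first and second of these, as lower in M19.

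The labelled tissue was checked against its markers on the 4 arrays. Dazl, an RNA-binding protein of germ cells, had 12.28 and 12.30 log2 units in M19, against 12.47 and 12.31 in 129. Ddx4, a germ cell RNA helicase, had 10.59 and 10.66 in M19, against 10.61 and 11.11 in 129. Sox9, the transcription factor that directs Sertoli cell fate, had 10.47 and 10.36 in M19, against 10.75 and 10.18 in 129. The arrays of the strains overlapped for Ddx4 and Sox9, and for Dazl the nearest arrays of the strains lay almost level.

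Replicate 1 of 129 stood apart. Its 18S ribosomal RNA controls averaged 9.69, while those of the other 11 arrays lay between 6.88 and 8.38. The spiked-in hybridisation controls averaged 11.81 and 11.80 on the M19 arrays, against 12.72 and 11.00 on replicates 1 and 2 of 129. On the 11 arrays other than replicate 1 of 129 they ran from 10.67 to 12.80, so its value lay within their range. Replicate 1 of 129 correlated at 0.979 with replicate 2, and at 0.986 and 0.983 with the M19 arrays. Replicate 2 of 129 correlated at 0.994 with each M19 array. The SD over probe sets of the difference between replicates was 0.161 in M19, against 0.38 in 129, and array medians were 8.14 and 8.11 in M19, against 8.27 and 8.1 in 129. Many differences that were not called moved when replicate 1 or 2 of 129 was left out. The part of RNA quality and of the spike-in level in the results was not tested beyond these values and the covariate fit given in the closing section.

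At E13.5 few probe sets differed between the strains, and most of the named ones belong to chromosome 19. The limma fit called 23 of 45037 probe sets (0.0511%) at an adjusted p under 0.05, of which 4 were higher (0.00888%) and 19 lower (0.0422%) in M19. Of these, 15 belong to genes of chromosome 19, 3 to genes of other chromosomes and 5 have no gene name here. The share called was 1.24% of the 1214 probe sets of chromosome 19 genes, against 0.00891% of the 33665 probe sets of genes of other chromosomes. By representatives, 6 of 18145 genes were called (0.0331%), all lower in M19: Sf1, Lipo3, Kif20b and Kazald1 of chromosome 19, Morc1 of chromosome 16 and Nxf2 of the X chromosome. An unadjusted p under 0.05 was found for 1252 probe sets, where chance alone gives 2252. The count of 23 was 10 without replicate 1 and 8 without replicate 2 of M19 at E13.5, 15 without either M19 E15.5 array, 22 without replicate 1 and 32 without replicate 2 of 129 at E13.5. In the fits without replicate 1 or 2 of 129, some of the 23 lost their call and other probe sets gained one. Each of these fits left 1 array of 129 at E13.5, and a larger count there is no added support for the 23. A limma fit on the E13.5 arrays alone, with 4 arrays to estimate the spread, called 0 and had 731 at an unadjusted p under 0.05. With the spiked-in control level as a covariate, a setting chosen after seeing the data, 44 were called.

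**Figure D1:**
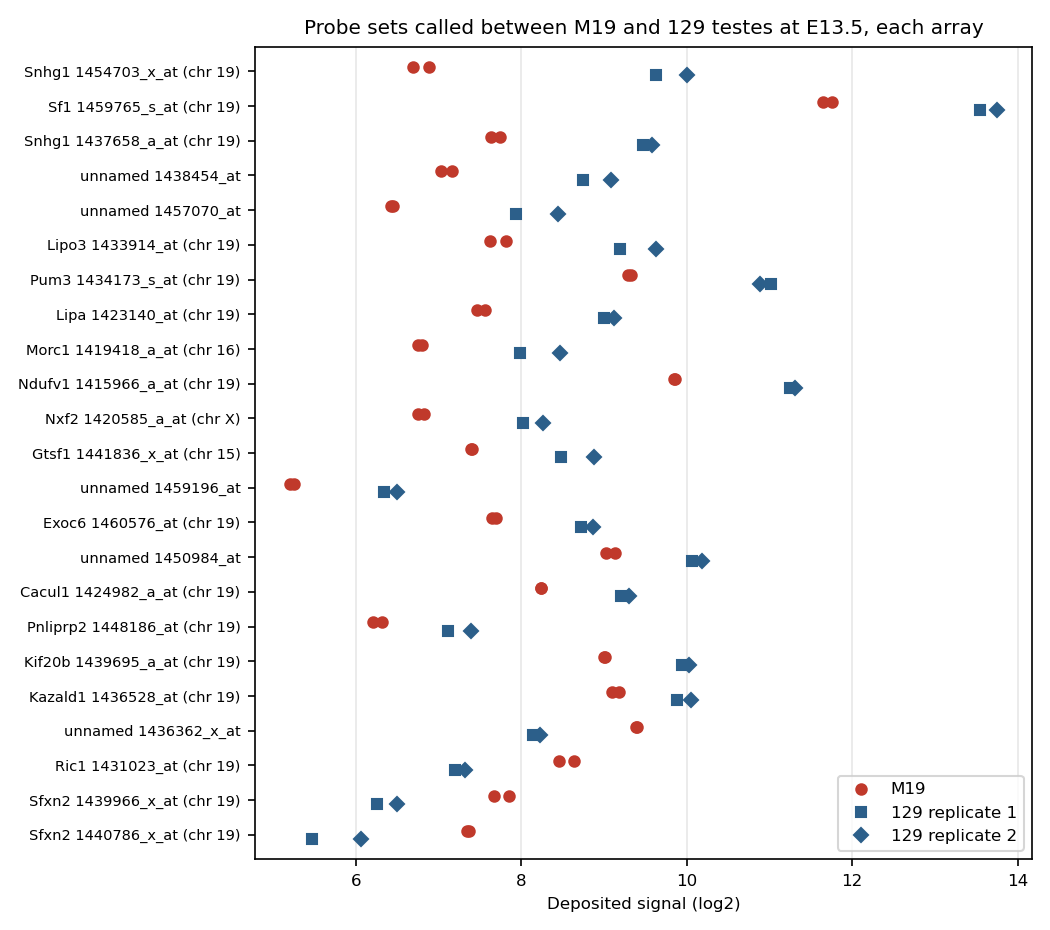
Deposited log2 signal of the 23 called probe sets on each E13.5 array (circles, M19; squares and diamonds, 129 replicates 1 and 2), from the lowest difference at the top to the highest at the bottom. In every row the M19 arrays lie apart from both 129 arrays, with 19 probe sets lower and 4 higher in M19.

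Among RNA-processing genes of chromosome 19, Sf1, the splicing factor that recognises the intron branch point (GRCm38.p6 chr19:6363673-6378038), was lower in M19 in 1 of its 5 probe sets. Probe set 1459765_s_at had 11.65 and 11.76 in M19, against 13.55 and 13.75 in 129. The difference was -1.94 ± 0.17 (limma adjusted p = 0.00146). Here and below the SE compares 2 arrays each but takes its spread from the limma fit on all 12 arrays. The other 4 Sf1 probe sets differed by -0.82, -0.27, -0.10 and -0.06, and none was called. The one at -0.82, 1459766_x_at, passed without replicate 2 of 129 (adjusted p = 0.0468), and the one at -0.06 was at 0.19 without replicate 1 of 129.

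Snhg1, a host gene of small nucleolar RNAs (chr19:8723487-8726326), gave the largest difference among the called probe sets. Its probe set 1454703_x_at had 6.69 and 6.88 in M19, against 9.62 and 10.00 in 129, a difference of -3.03 ± 0.16 (limma adjusted p = 4.18e-05). A further Snhg1 probe set, 1437658_a_at, differed by -1.84 ± 0.12. The 3 brighter probe sets of the gene, at 10.77 to 11.85 in M19 and 10.84 to 12.01 in 129, differed by -0.22 to -0.11 and were not called.

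Pum3, a nucleolar RNA-binding protein of the Pumilio family (chr19:27388698-27429908), showed the same split. Probe set 1434173_s_at had 9.29 and 9.33 in M19, against 11.01 and 10.88 in 129, a difference of -1.64 ± 0.11 (limma adjusted p = 0.000251). Its brightest probe set had 10.27 and 10.35 in M19, against 10.19 and 10.24 in 129, and differed by 0.09 ± 0.11. The third differed by -0.65 ± 0.11 (adjusted p = 0.11) and did not pass.

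Cox15, a mitochondrial protein needed to make the heme of cytochrome c oxidase, was not called in any of its 4 probe sets. Probe set 1437982_x_at had 8.65 and 8.60 in M19, against 9.80 and 10.02 in 129, a difference of -1.29 ± 0.26 (limma adjusted p = 0.35). The other 3 probe sets differed by -0.21 to -0.20, and the signs of 2 of them turned without replicate 2 of 129, at 0.03 and 0.12.

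The lipid genes of chromosome 19 that were called were all lower in M19. Lipa, lysosomal acid lipase (chr19:34492316-34527474), had 7.46 and 7.56 in M19, against 9.0 and 9.12 in 129, in probe set 1423140_at (-1.55 ± 0.12, limma adjusted p = 0.000588), while its 2 brighter probe sets differed by -0.32, or -0.56 and -0.09 without replicate 1 and 2 of 129, and by 0.03. Lipo3, a relative of the acid lipases (chr19:33555160-33590669), had 7.62 and 7.81 in M19, against 9.19 and 9.63 in 129 (-1.69 ± 0.24, adjusted p = 0.0484). Leaving out 1 array at a time lost the Lipo3 call in 10 of 12 fits, with an adjusted p of 0.0702 without replicate 1 and 0.0769 without replicate 2 of 129, 0.55 and 0.332 without replicate 1 and 2 of M19 at E13.5, 0.0953 without either M19 E15.5 array (1 left out at a time), 0.103 without either 129 E17.5 array and 0.0528 without either M19 E17.5 array. It was also lost with quantile normalization (0.0938), centred arrays (0.0951) and array weights (0.145).

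Pnliprp2, a relative of pancreatic lipase, had 6.2 and 6.31 in M19, against 7.12 and 7.40 in 129, in probe set 1448186_at (-1.0 ± 0.13, limma adjusted p = 0.0265). Its brighter probe set differed by -0.30. Leaving out 1 array at a time lost the Pnliprp2 call in 7 of 12 fits: without replicate 2 of 129 (adjusted p = 0.0645), replicate 1 or 2 of M19 at E13.5 (0.476 and 0.328), either M19 E15.5 array (0.0813) and either 129 E17.5 array (0.0717). It was also lost with quantile normalization (0.105), centred arrays (0.112) and array weights (0.0954). In the list of acid lipases, 1 of 7 measured genes was called, where 0.0331% of all representatives were, with a median difference of -0.22, beside -0.06 over all. Lipk and Lipo2, of the same family, were at -0.33 ± 0.19 and -0.19 ± 0.15 and were not called.

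Genes of mitochondria were called in both directions. Ndufv1, a core subunit of respiratory complex I (chr19:4007499-4012755), had 9.85 and 9.85 in M19, against 11.25 and 11.31 in 129, in probe set 1415966_a_at (-1.43 ± 0.10, limma adjusted p = 0.000367). Its other 2 probe sets differed by -0.49 and -0.28. Sfxn2, a carrier of the inner mitochondrial membrane (chr19:46573325-46596901), was higher in M19 in 2 of 4 probe sets. Its 1440786_x_at had 7.36 and 7.34 in M19, against 5.47 and 6.06 in 129 (1.58 ± 0.19, adjusted p = 0.0158), and 1439966_x_at had 7.67 and 7.85, against 6.25 and 6.49 (1.39 ± 0.14, adjusted p = 0.00254). The 2 brighter Sfxn2 probe sets differed by 0.23 and 0.51.

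The Sfxn2 call of 1440786_x_at was lost in 7 fits, without replicate 1 of 129 (adjusted p = 0.0582), replicate 1 or 2 of M19 at E13.5 (0.242 and 0.229), either M19 E15.5 array (0.0559) or either 129 E17.5 array (0.0553). That of 1439966_x_at was lost without replicate 2 of M19 at E13.5 (0.0892).

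The other called genes of chromosome 19 were Ric1, Exoc6, Kif20b, Cacul1 and Kazald1. Ric1, part of the complex that activates the Golgi GTPase Rab6 (chr19:29522216-29605921), was higher in M19 in 1431023_at, with 8.46 and 8.63, against 7.19 and 7.32 in 129 (1.29 ± 0.12, limma adjusted p = 0.00173). Its brighter probe set had 9.96 and 10.02 in M19, against 9.23 and 9.44 in 129, and differed by 0.66 ± 0.18 without passing. Without replicate 2 of M19 at E13.5 the adjusted p of 1431023_at was 0.0555.

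Exoc6, a subunit of the exocyst that tethers secretory vesicles (chr19:37536763-37684052), was lower in M19 in 1460576_at, with 7.69 and 7.64, against 8.72 and 8.87 in 129 (-1.13 ± 0.11, limma adjusted p = 0.00254). Its 3 other probe sets differed by -0.17 to 0.03. The Exoc6 call was lost at E13.5 when M19 replicate 1 (0.0602) or M19 replicate 2 (0.0944) was left out.

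Kif20b, a kinesin of cell division (chr19:34922335-34975750), had 9.0 and 9.01 in M19, against 9.94 and 10.03 in 129, in its brightest probe set (-0.98 ± 0.13, limma adjusted p = 0.029). Its other probe sets differed by -0.09, 0.55 and 0.62, and both of those above 0 had 3.55 to 4.81 log2 units of signal on the 4 arrays. Without replicate 1 and 2 of 129 the difference was -1.03 and -0.94. The Kif20b call was lost in 8 fits that left out 1 array. These were the fits without either E13.5 array of 129 or of M19, either M19 E15.5 array or either 129 E17.5 array. The call was also lost with centred arrays (limma adjusted p = 0.0754) and array weights (0.129). Of the 13 measured mitotic kinesins it was the 1 called, where 0.0331% of all representatives were. The list's median was -0.06, beside -0.06 over all representatives. Kif23, of the central spindle, was at -0.14 ± 0.11.

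Cacul1, a cullin-domain protein that binds the cell cycle kinase Cdk2, was lower in M19 in 1424982_a_at, with 8.24 and 8.24, against 9.21 and 9.30 in 129 (-1.01 ± 0.13, limma adjusted p = 0.0232). Its 5 other probe sets ran from -0.86 to 0.42. Without replicate 1 and 2 of 129 the difference of 1424982_a_at was -1.06 and -0.97. The Cacul1 call was lost in 8 fits that left out 1 array. These were the fits without either E13.5 array of 129 or of M19, either M19 E15.5 array or either 129 E17.5 array. The call was also lost with centred arrays (limma adjusted p = 0.0589) and array weights (0.0955).

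Kazald1, which is secreted and carries a Kazal-type inhibitor domain (chr19:45074962-45079289), has 1 probe set here. It had 9.09 and 9.18 in M19, against 9.88 and 10.05 in 129 (-0.83 ± 0.11, limma adjusted p = 0.0243). The Kazald1 call was lost in 9 fits, at 0.0607 without replicate 2 of 129, 0.485 and 0.332 without replicate 1 and 2 of M19 at E13.5, 0.0773 without either M19 E15.5 array, 0.0669 without either 129 E17.5 array and 0.0565 without either M19 E17.5 array. It was also lost with quantile normalization (0.0658), centred arrays (0.14) and array weights (0.101).

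The called probe sets of chromosome 19 are mostly not the brightest of their gene. Only 4 of the 15 represent their gene, and the 13 genes hold 28 other probe sets. Of these 28, 20 had the sign of the called probe set, 17 lay within 0.3 of no difference, 8 were beyond 0.3 with that sign and 3 beyond 0.3 with the opposite sign. Array probes are short and follow the reference mouse sequence, and MOLF differs from it at many bases. Probe sets ending in _x_at or _s_at can also match other transcripts. A lower transcript level in M19 and weaker binding of MOLF sequence to the probes cannot be told apart from these arrays.

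For 5 called probe sets the platform annotation used here gives no gene. Probe set 1438454_at had 7.03 and 7.16 log2 units in M19, against 8.74 and 9.09 in 129, a difference of -1.82 that stayed called with any 1 array left out. Probe set 1457070_at had 6.45 and 6.42 in M19, against 7.93 and 8.44 in 129, a difference of -1.75 with a limma adjusted p of 0.0555 without replicate 2 of M19 at E13.5. Both were far lower on each M19 array. Probe set 1459196_at differed by -1.19 and lost its call without replicate 1 or 2 of M19 at E13.5 (0.25 and 0.223) or replicate 2 of 129 (0.0567). Probe set 1450984_at differed by -1.05 and lost its call in 8 of the 12 fits that omit an array, with adjusted p-values up to 0.372, and with array weights (0.0954). Probe set 1436362_x_at was the one that was higher, with 9.40 and 9.39 in M19, against 8.14 and 8.22 in 129, a difference of 1.21, and it lost its call without replicate 1 or 2 of M19 at E13.5 (0.117 and 0.11).

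**Figure D2:**
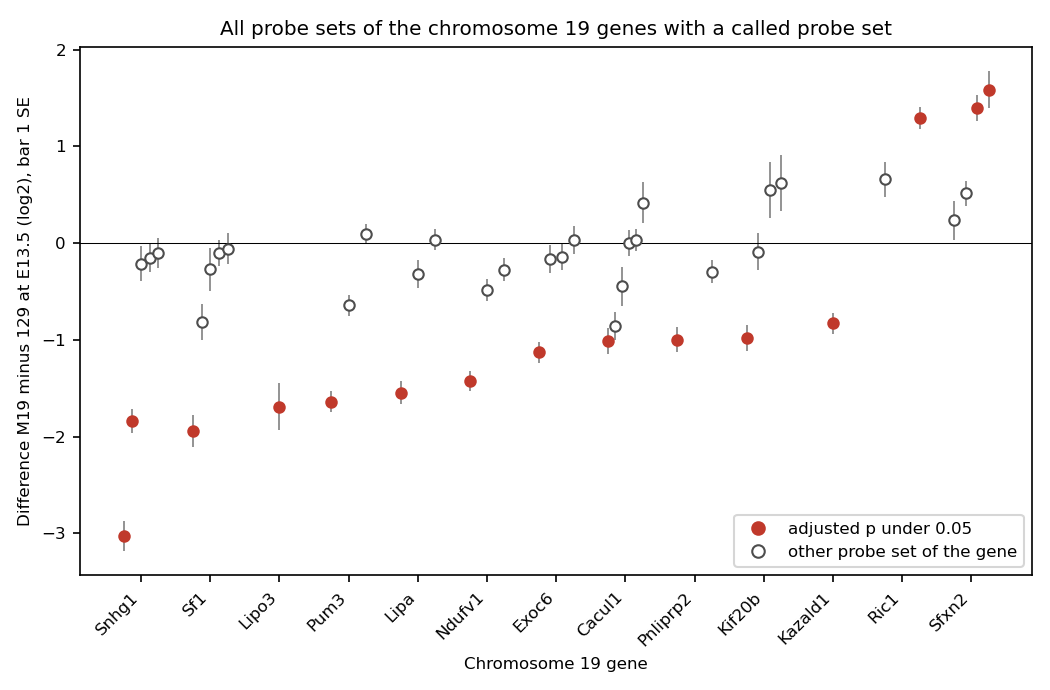
Difference M19 minus 129 at E13.5 (log2, bars 1 SE of the limma fit) for every probe set of the 13 chromosome 19 genes that hold a called one. Filled points have an adjusted p under 0.05; open points are the 28 other probe sets, 17 of which lie within 0.3 of 0.

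Differences on chromosome 19 were wider in both directions, called or not. The SD of the differences over its probe sets was 0.301, against 0.146 to 0.165 on the other autosomes. It was 0.33, against 0.157 to 0.18, without replicate 1 of 129, and 0.371, against 0.29 to 0.311, without replicate 2. By representatives, 31 of 611 chromosome 19 genes (5.07%) lay beyond 0.5 with no overlap of the arrays, 9 higher and 22 lower in M19. On all other chromosomes 80 genes (0.456%) did, 13 higher and 67 lower.

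**Figure D3:**
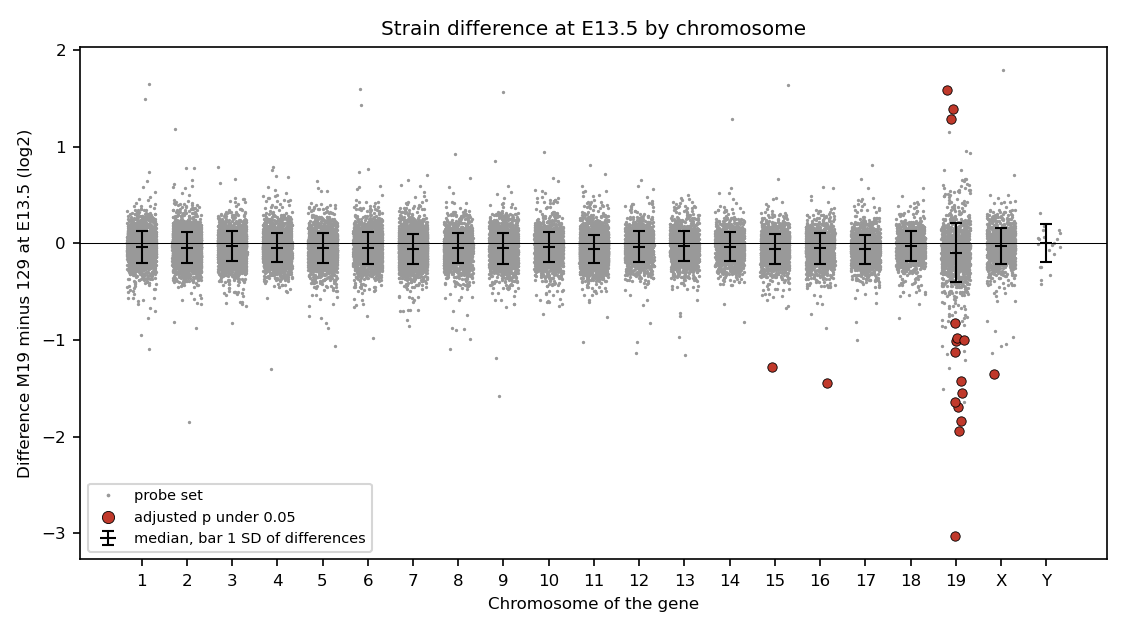
Difference M19 minus 129 at E13.5 (log2) of every probe set with a gene on a chromosome, by chromosome; black bars give the median and 1 SD of the differences, and red points the called probe sets. Chromosome 19 has the widest autosomal spread (SD 0.301) and 15 of the 18 called points shown.

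Further chromosome 19 genes, among representatives whose higher mean exceeds 8.17, differed without overlap of the arrays and were not called. Tmem258, a subunit of the oligosaccharyltransferase, had 11.05 and 11.10 in M19, against 10.03 and 10.21 in 129 (0.96 ± 0.16, limma adjusted p = 0.14), while its dimmer probe set differed by -0.10. Pyroxd2, a mitochondrial oxidoreductase, was at 0.67 ± 0.12. Frat2, an inhibitor of the kinase Gsk3, was at 0.61, the actin-binding Ablim1 at 0.59, the non-coding 2700046G09Rik at 0.54 and the small GTPase Arl3 at 0.53. None of these 6 passed. Without replicate 1 and 2 of 129, Frat2 was at 0.27 and 0.94, 2700046G09Rik at 0.85 and 0.23 and Arl3 at 0.34 and 0.71.

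On the low side, Stn1, of the complex that protects telomeres, had 8.60 and 8.84 in M19, against 9.34 and 9.83 in 129 (-0.87 ± 0.19, limma adjusted p = 0.51). Rrp12, of ribosome assembly, was at -0.81 ± 0.15 (adjusted p = 0.22), and the cytokine Il33 had 8.27 and 8.08 in M19, against 8.84 and 9.01 in 129 (-0.75 ± 0.13, adjusted p = 0.18). The arrays of the strains did not overlap for these 3 genes, and none was called.

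Away from chromosome 19, the 3 called genes all act in the germline and were lower in M19. Morc1, an ATPase that represses transposons in male germ cells (GRCm38.p6 chr16:48431237-48630905), had 6.75 and 6.8 in M19, against 7.98 and 8.47 in 129. The difference was -1.45 ± 0.16 (SE, 2 arrays each; limma adjusted p = 0.00647), and -1.69 and -1.20 without replicate 1 and 2 of 129. The Morc1 call was lost when M19 replicate 1 (adjusted p = 0.131) or M19 replicate 2 (0.11) of this stage was left out.

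Nxf2, a germline member of the RNA export factor family (chrX:134944526-134964754), had 6.75 and 6.82 in M19, against 8.02 and 8.26 in 129. Its difference was -1.36 ± 0.12 (limma adjusted p = 0.0018), and -1.48 and -1.24 without replicate 1 and 2 of 129. Leaving out replicate 1 of M19 at E13.5 gave an adjusted p of 0.0519. Of the 6 measured Nxf and Nxt genes it was the 1 called, where 0.0331% of all representatives were. Nxf3, Nxf7 and the general export factor Nxf1 were at -0.30, -0.27 and -0.16, and Nxf1 was at -0.07 and -0.24 without replicate 1 and 2 of 129.

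Gtsf1, a zinc finger cofactor of PIWI proteins (chr15:103402458-103430445), was lower in M19 in 1 of 2 probe sets. Probe set 1441836_x_at had 7.39 and 7.41 in M19, against 8.48 and 8.88 in 129 (-1.28 ± 0.16, limma adjusted p = 0.0158). The brighter probe set had 10.15 and 9.88 in M19, against 10.58 and 10.02 in 129, differed by -0.28 ± 0.17, was not called, and was at 0.0037 without replicate 1 of 129. The call of 1441836_x_at was lost in 5 fits, without replicate 2 of 129 (adjusted p = 0.055), replicate 1 or 2 of M19 at E13.5 (0.25 and 0.249) and either M19 E15.5 array (0.051), and also with arrays centred on their median (0.0589).

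The promoters of the called germline genes Nxf2 and Gtsf1, and of Mael, which was not called, are shown because some mouse germline promoters are known to carry the E-box CACGTG, to which repressors of germline genes bind in embryonic stem cells. Each is the 250 bases before an annotated start, 5′ to 3′ on the gene's strand (minus for all 3), from RefSeq on GRCm38.p6, with every CACGTG in capitals. Nxf2 is at chrX:134964755-134965004, Gtsf1 at chr15:103430428-103430677 and Mael, described below, at chr1:166238745-166238994.
Nxf2: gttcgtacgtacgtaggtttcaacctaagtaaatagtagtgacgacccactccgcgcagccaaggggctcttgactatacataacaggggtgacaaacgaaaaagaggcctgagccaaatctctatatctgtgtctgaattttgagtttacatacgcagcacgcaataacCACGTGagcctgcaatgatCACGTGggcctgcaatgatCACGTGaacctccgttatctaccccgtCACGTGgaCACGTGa
Gtsf1: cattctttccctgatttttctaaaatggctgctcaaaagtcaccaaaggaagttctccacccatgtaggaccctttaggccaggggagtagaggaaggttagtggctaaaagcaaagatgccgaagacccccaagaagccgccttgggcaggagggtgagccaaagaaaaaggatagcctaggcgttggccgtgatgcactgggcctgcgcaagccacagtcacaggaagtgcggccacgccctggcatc
Mael: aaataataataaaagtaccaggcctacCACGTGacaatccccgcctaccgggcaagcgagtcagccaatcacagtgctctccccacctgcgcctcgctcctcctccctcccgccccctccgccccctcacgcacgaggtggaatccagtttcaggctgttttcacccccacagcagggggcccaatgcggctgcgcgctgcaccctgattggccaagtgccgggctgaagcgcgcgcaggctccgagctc
The motif reads the same on both strands. It occurs 5 times in the Nxf2 window, 1 time in the Mael window and not in the Gtsf1 window, and a second annotated Nxf2 start (chrX:134963898-134964147) has none. Of 32851 windows of this length, 1978 (6.02%) hold at least 1 match and 5 (0.0152%) hold at least 5. These matches describe the sequence and say nothing about binding in these samples. Morc1, the other called germline gene, had no window in the sources used here. Mael is the only uncalled gene shown, so the windows are not a full set of the germline genes.

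Of the genes of piRNA production and transposon silencing, 18 were measured and 1 of them, Morc1, passed the test, lower in M19. Over all representatives, 0.0331% passed. All 18 had a difference below 0, where 67% of all 18145 representatives did, and 15 had both M19 arrays below both 129 arrays, where 19% of all representatives did and 6.65% had both above. The median difference was -0.37, beside -0.06 over all representatives. It was -0.36 without replicate 1 and -0.41 without replicate 2 of 129, beside -0.01 and -0.11 over all. The mean level of the list was 8.07 and 8.08 in M19, against 8.56 and 8.59 in 129. None of its genes was at 0, but only 1 of all 18145 representatives was. This could therefore not show that a signal lay above background. In M19 the means at E13.5 were 6.78 for Morc1 and 5.62 for Piwil4, against 9.45 for Mael. The middle of all probe set means was 8.17. Whether the dimmer M19 signals, with that of Nxf2 (6.78) outside the list, lay above background was not tested.

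Within that list, Piwil4, the nuclear PIWI protein that directs DNA methylation of transposons, had 5.57 and 5.66 in M19, against 6.75 and 7.65 in 129. The difference was -1.59 ± 0.28 and did not pass (limma adjusted p = 0.16), and without replicate 1 of 129 it was -2.04 and passed (0.0249). A second Piwil4 probe set was at -0.63 ± 0.14. Mael, a nuage protein of the same pathway, had 9.46 and 9.45 in M19, against 10.14 and 10.65 in 129 (-0.95 ± 0.15, adjusted p = 0.1), and it passed without replicate 1 of 129 (-1.20, adjusted p = 0.00638) and with an intensity trend in the variance (0.0153).

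The tudor protein genes Tdrd5 and Tdrd9 gave like values without passing. Tdrd5 had 8.63 and 8.74 in M19, against 9.39 and 9.31 in 129 (-0.67 ± 0.14), and Tdrd9 had 7.31 and 7.46, against 8.01 and 8.04 (-0.64 ± 0.12). Tdrd5 lies outside the naming rule and was chosen after its values were seen. Dnmt3l, the cofactor of new DNA methylation in germ cells, had 7.54 and 7.55 in M19, against 8.15 and 7.97 in 129 (-0.52 ± 0.12). At the other end of the list Pld6, chosen after its values were seen, a mitochondrial enzyme of piRNA production, was at -0.0044, and its arrays overlapped. In the DNA methylation list as a whole, 0 of 8 genes were called and the median was 0.06.

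**Figure D4:**
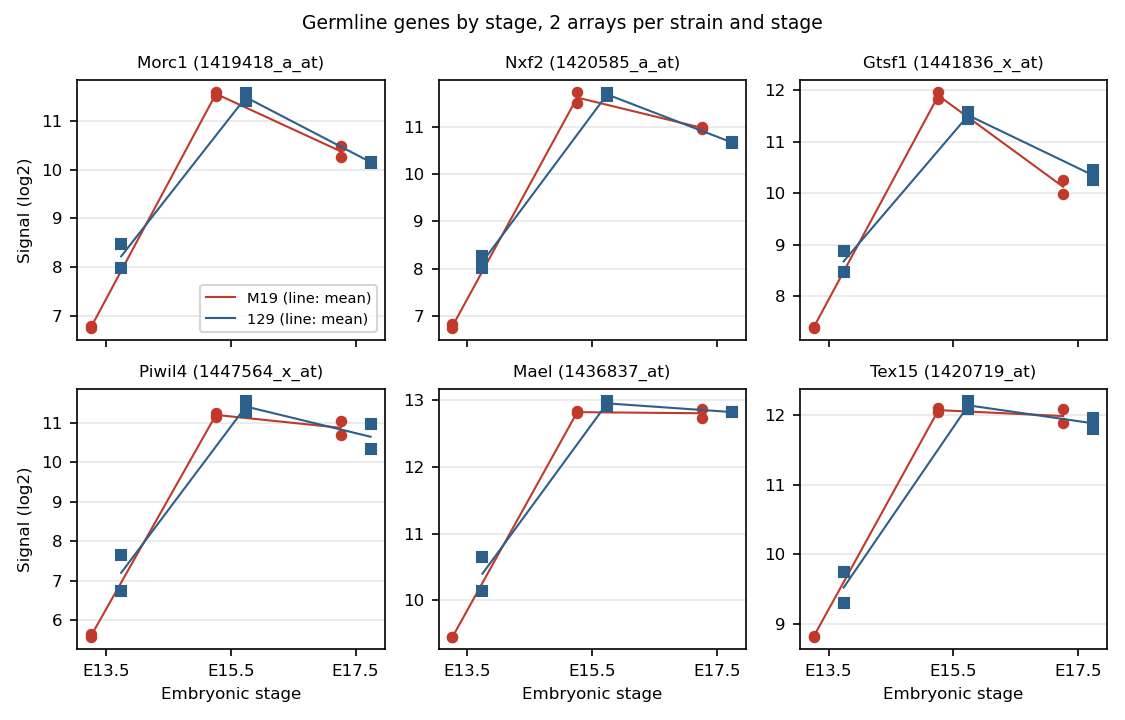
Log2 signal of Morc1, Nxf2, Gtsf1 (the called probe set), Piwil4, Mael and Tex15 on every array by stage, with M19 left of 129 at each stage and lines through the group means. At E13.5 all M19 points lie below all 129 points; at E15.5 and E17.5 no difference of these 6 probe sets was called.

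In the list of general germ cell genes 0 of 15 measured genes were called. There were 11 below 0 (73.3%), where 67% of all representatives were. The median was -0.18, beside -0.06 over all. It was -0.09 without replicate 1 of 129, beside -0.01 over all, and -0.09 without replicate 2, beside -0.11 over all. The list's mean level was 9.57 and 9.57 in M19, against 9.70 and 9.79 in 129, and the part of the germ cell share in the values of the silencing genes was not tested. Taf7l, a germline subunit of the transcription factor TFIID, had 6.41 and 6.48 in M19, against 7.11 and 7.86 in 129 (-1.04 ± 0.27, limma adjusted p = 0.92). Stk31 and Dnd1, a kinase-like and an RNA-binding protein of germ cells, were at -0.30 and -0.27. Without replicate 1 and 2 of 129, Taf7l was at -1.42 and -0.66, Stk31 at -0.50 and -0.09 and Dnd1 at -0.16 and -0.37. Outside this list, Tex14, of the bridges between germ cells, was at -0.39 ± 0.11, the lowest difference of the germ cell tumour risk list.

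In the meiosis list 0 of 18 genes were called and 17 were below 0, with a median of -0.19. Both M19 arrays lay below both 129 arrays for 10 and above them for 1, where 19% and 6.65% of all representatives did and 67% were below 0. Sycp1, of the synaptonemal complex, had 7.14 and 7.21 in M19, against 7.61 and 7.75 in 129 (-0.51 ± 0.11, limma adjusted p = 0.51). Sycp2 was at -0.43 ± 0.19, and at -0.64 and -0.22 without replicate 1 and 2 of 129. Tex15, a germ cell protein needed for meiosis and transposon silencing, had 8.80 and 8.83 in M19, against 9.30 and 9.74 in 129 (-0.70 ± 0.15, adjusted p = 0.45).

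Pluripotency and Nodal genes, which other work ties to germ cell tumours, were not called at E13.5. Of 21 pluripotency genes 9 were below 0, where 67% of all representatives were, and the median was 0.03, beside -0.06 over all. L1td1, an RNA-binding protein of pluripotent cells, had 10.25 and 10.32 in M19, against 9.52 and 9.94 in 129 (0.55 ± 0.14, limma adjusted p = 0.91), and was at 0.34 and 0.76 without replicate 1 and 2 of 129. Dppa4 had 10.62 and 10.59 in M19, against 10.94 and 11.05 in 129 (-0.39 ± 0.11), and Klf2 was at -0.25 ± 0.13.

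Of 11 Nodal pathway genes, 0 were called and the median was 0.04. The co-receptor Tdgf1 had 8.55 and 8.46 in M19, against 7.19 and 8.12 in 129 (0.85 ± 0.33, limma adjusted p = 1), and 0.39 without replicate 1, or 1.32 without replicate 2, of 129. The feedback inhibitor Lefty2 had 9.79 and 9.98 in M19, against 9.05 and 9.66 in 129 (0.53 ± 0.23), and was at 0.23 and 0.83 without replicate 1 and 2 of 129. The ligand Nodal had 8.37 and 8.25 in M19, against 8.05 and 8.24 in 129 (0.17 ± 0.13), and was at 0.07 and 0.27 in these settings. The M19 arrays lay above the 129 arrays for all 3, by little for Nodal, and replicate 1 of 129 was the lowest array each time.

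Fetal Leydig cell genes were all below 0, where 67% of all representatives were, and none was called. The 11 measured genes had a median of -0.18, beside -0.06 over all representatives. Without replicate 1 and 2 of 129 it was -0.17 and -0.13, beside -0.01 and -0.11 over all. Their mean level was 10.22 and 10.19 in M19, against 10.41 and 10.43 in 129. Cyp11a1, which makes pregnenolone from cholesterol, had 10.46 and 10.68 in M19, against 11.03 and 11.27 in 129 (-0.58 ± 0.14, limma adjusted p = 0.73). The androgen-synthesis enzyme Cyp17a1 had 11.60 and 11.56, against 12.01 and 11.87 (-0.36 ± 0.11), and the lipoprotein receptor Scarb1 was at -0.25. The cholesterol synthesis list was at -0.10 over 19 genes with 0 called, with Mvd at -0.27 ± 0.14, or -0.09 and -0.45 without replicate 1 and 2 of 129.

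Sertoli cell genes lay on both sides of 0. Of 17 measured genes 0 were called and 8 were below 0, where 67% of all representatives were. The median was 0.04, beside -0.06 over all. Amh, the hormone that regresses the female ducts, had 9.89 and 10.52 in M19, against 10.16 and 11.46 in 129, and its arrays overlapped. Its difference of -0.61 ± 0.39 was -1.26 without replicate 1 and 0.05 without replicate 2 of 129. The secreted chaperone Clu was at -0.22 and the growth factor Fgf9 at 0.25. In the same settings Clu was at -0.11 and -0.34, and Fgf9 at 0.06 and 0.44.

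Other cell types of the sample were described in the same way, beside a median of -0.06 and 0.0331% called over all representatives. Peritubular muscle genes had a median of -0.16 over 8 genes, with Tagln at -0.43 ± 0.11 and Acta2, a chromosome 19 gene, at -0.25 ± 0.11. Interstitial mesenchyme was at -0.13 over 12 genes, with the proteoglycan Dcn at -0.32 ± 0.11, endothelium at 0.04, macrophages at -0.05 and red blood cells at -0.01, with the embryonic globin Hbb-bh1 at 0.43 ± 0.17, or 0.64 and 0.23 without replicate 1 and 2 of 129. Skin, skeletal muscle, and cartilage and tendon genes were at -0.04, -0.06 and -0.08, and 0 of their 11, 15 and 15 genes were called. The branch point recognition list, to which Sf1 belongs, was at -0.10 over 17 genes with Sf1 alone called and Sf3b4 at -0.22. The remaining lists had no called gene. Their medians were -0.07 for germ cell tumour risk, -0.10 for cell cycle inhibitors, -0.01 for proliferation, -0.10 for mesonephros and ducts, -0.07 for the coelomic surface, -0.15 for metanephros, -0.13 for adrenal and chromaffin cells, -0.08 for female gonad, -0.03 for neurons and glia, -0.03 for immediate early and stress genes, 0.09 for hypoxia and glycolysis and -0.01 for sex-linked genes.

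Several medians near 0 rested on 1 of the 129 arrays. Without replicate 1 and without replicate 2 of 129 the median was 0.14 and -0.31 for skin, 0.15 and -0.12 for red blood cells, 0.16 and -0.03 for Nodal genes, -0.03 and 0.09 for pluripotency genes, -0.05 and 0.05 for Sertoli cells, -0.03 and 0.16 for DNA methylation genes, 0.03 and -0.16 for mesonephros and ducts, 0.05 and -0.26 for adrenal and chromaffin cells, 0.04 and -0.07 for neurons and glia and -0.24 and 0.19 for sex-linked genes. The sign of each of these medians turned with the array of 129 that was left out. Others moved without a turn, to -0.06 and -0.27 for metanephros, -0.04 and -0.24 for cartilage and tendon and -0.14 and -0.05 for macrophages.

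**Figure D5:**
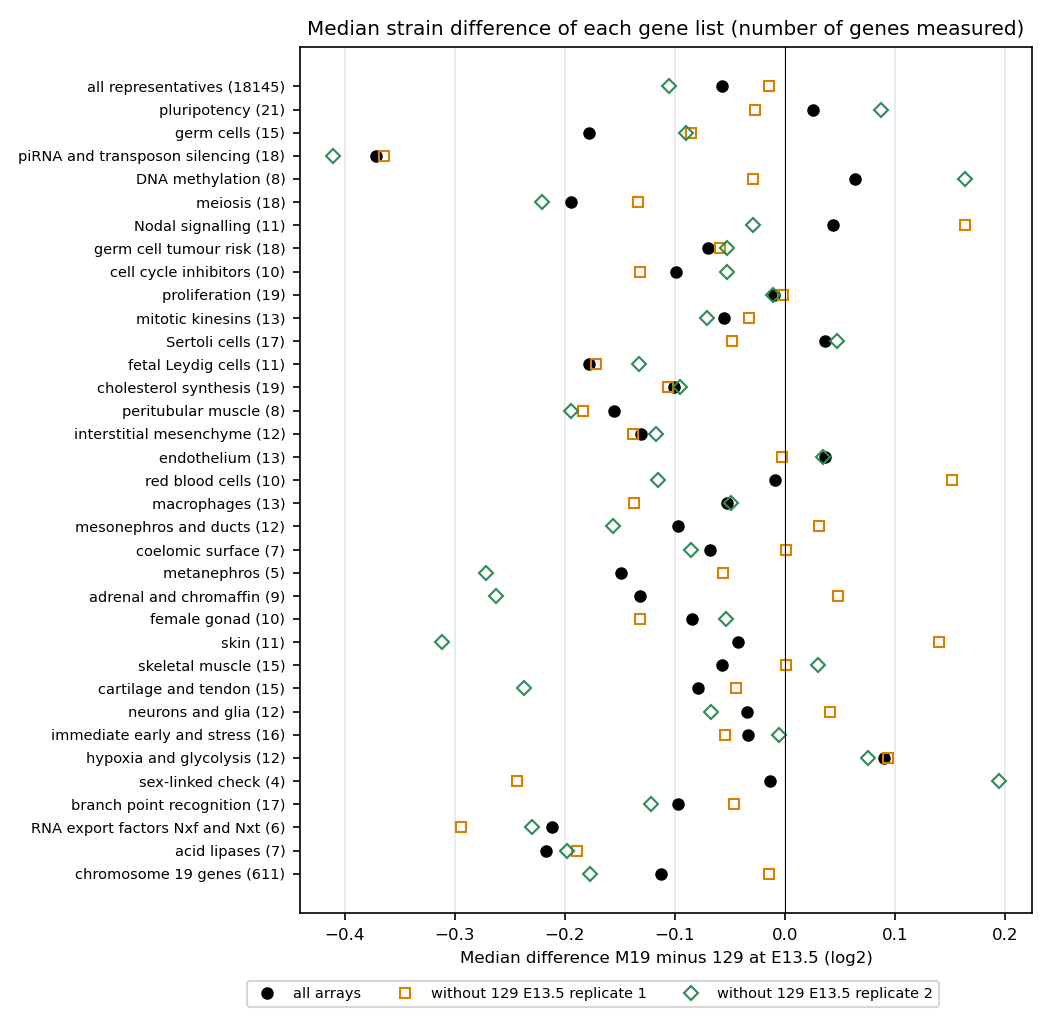
Median difference M19 minus 129 at E13.5 (log2) of each gene list over its measured genes, with all arrays (filled circles) and without replicate 1 (squares) or replicate 2 (diamonds) of 129. The list of the 3 genes named in the series text is not drawn; of those drawn, the piRNA and transposon silencing list lies lowest, between -0.41 and -0.36 under all 3 settings.

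The chromosome 19 calls at E13.5 mostly recurred at later stages, and the germline calls did not. The later means rest on other arrays, but all stages share the same estimate of spread for a probe set. A probe set called partly for a small spread is thus favoured at every stage, also beside the shares of all probe sets. Of the 23 probe sets, 17 were also called at E15.5, where 0.573% of all probe sets were, and 16 at E17.5, where 0.0977% were. The 17 shared probe sets are 73.9% of the E13.5 calls and 6.59% of the E15.5 calls, and the 16 are 69.6% of the E13.5 calls and 36.4% of the E17.5 calls. Of the 15 chromosome 19 probe sets, 13 and 12 were called at E15.5 and E17.5, and 0 had a strain difference that differed from E13.5 by the interaction test.

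Sf1 differed by -1.94, -1.97 and -2.06 at E13.5, E15.5 and E17.5, and Snhg1 (1454703_x_at) by -3.03, -3.19 and -3.32. Pnliprp2 differed by -1.0, -0.51 and 0.05, without a call at the later stages. The 31 chromosome 19 genes beyond 0.5 at E13.5 had the same sign in 31 cases at E15.5 and 28 at E17.5. For the 80 genes of other chromosomes the numbers were 45 and 33.

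Of the 3 germline genes away from chromosome 19, 0 were called at E15.5 or E17.5, and all 3 strain differences at E15.5 differed from that at E13.5 by the interaction test. The 3 genes were named for their E13.5 calls, and the interaction test uses the same E13.5 values. Its result is therefore not independent of that choice. This test called 60 of 45037 probe sets (0.133%) at E15.5. Morc1 had a mean of 11.56 in M19 and 11.49 in 129 at E15.5, Nxf2 of 11.62 and 11.68, and Gtsf1 (1441836_x_at) of 11.89 and 11.51. At E13.5 the means of the same probe sets were 6.78, 6.78 and 7.40 in M19, against 8.22, 8.14 and 8.68 in 129. Signals of all 3 were lower at E13.5 than at E15.5 in both strains. The piRNA and transposon silencing list had a median difference of 0.02 at E15.5 and 0.02 at E17.5. The labels give the embryos' age only by stage, so a small difference in age within E13.5 and a difference between the strains cannot be told apart.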

How the data were processed

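Gene expression was measured on Affymetrix mouse whole-genome arrays, and the values used here are 1 per probe set and array as deposited by the authors, taken as log2 signal. Neither the log base, the summary method, the background correction nor the normalization is given in the sources used here, and the log2 scale is inferred from the values. No raw intensities were used. Per the labels' protocols, 40 pairs of testes were pooled for 2 arrays, so both arrays of a group may share a pool and p-values may measure technical spread only. The 64 control probe sets were left out. The platform annotation gave 1 gene for 34945 of 45037 probe sets, several for 932 and none for 9160, and 34884 matched RefSeq (GRCm38.p6). The brightest probe set over the 12 arrays represents each of 18145 genes.

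A linear model with 6 group means was fitted to all 12 arrays with limma 3.58.1 in R 4.3.3 and moderated with eBayes (6 residual and 4.82 prior degrees of freedom). Tests are two-sided, with Benjamini-Hochberg adjustment over all 45037 probe sets and a threshold of 0.05. Differences are M19 minus 129, and each SE uses the spread shared by the 6 groups. The SD of the difference between replicates was 0.38 for 129 at E13.5, against 0.161 for M19 at E13.5 and 0.212 to 0.292 at the later stages. The SE may therefore understate the spread of the 129 arrays at E13.5. Annotation and plots used Python 3.11.15, pandas 2.3.3 and matplotlib 3.10.9.

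The arrays, the 34 gene lists and the naming rule were chosen with earlier results of these data known. The rule names every called probe set with the other probe sets of its gene, up to 10 higher and 10 lower representatives with the largest difference whose arrays do not overlap and whose higher mean exceeds 8.17, the middle of the probe set means, up to 4 members of a list by moderated t, and 3 genes of the series text. Other names are marked as chosen after their values were seen. Lists are described by counts and medians, with no test of their own.

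On simulated data for this comparison, 200 of 45037 probe sets were changed. The procedure made 110 calls, 5 of them false, and recovered 5.97% of changes of 0.5, 55.2% of changes of 1 and 97% of changes of 2 log2 units. These shares describe the simulated data only. In the real data the spread between replicates at E13.5 was unequal between the strains, and both arrays of a group may share a pool. Whether the shares carry over to such arrays was not tested. The fit was repeated with quantile normalization, with arrays centred on their medians, with 2 filters on low values, on the 4 E13.5 arrays alone, with an intensity trend, array weights or a replicate block, without each array in turn, and with the level of the spiked-in controls as a covariate, the last chosen after seeing the data. The number of arrays limits the precision.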

Additional observations from a re-analysis of the deposited data

Results flagged for a closer look

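Among the results flagged here, the strain difference at E15.5 minus that at E13.5 passed limma's interaction test for 6. That at E17.5 minus that at E13.5 passed for 1. Over all probe sets 60 and 4 passed. Of the 60, 52 were negative and 8 positive, and 55 had an E13.5 difference within 0.35 of 0. The flagged results are thus a small part of those that passed. The difference of differences at E15.5 was 1.52 ± 0.22 for Morc1 (adjusted p = 0.0282), 1.29 ± 0.18 for Nxf2 (0.017), 1.66 ± 0.22 for Gtsf1 probe set 1441836_x_at (0.0141) and 1.09 ± 0.16 for Sycp1 (0.0256). For Nxf2 it was 1.66 ± 0.18 at E17.5 (adjusted p = 0.0221). Both M19 arrays were lower than both 129 arrays at E13.5 for these 4 genes. Each difference of differences holds the E13.5 values by which Morc1, Nxf2 and Gtsf1 were called, so the test is not independent of those calls.

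Krt1, an epidermal keratin, had -3.51 ± 0.18 at E15.5 minus E13.5 (limma adjusted p = 2.46e-05), and Myh8, a skeletal muscle myosin, had -1.81 ± 0.19 (0.00266). At E15.5 Krt1 averaged 7.69 in M19 and 11.34 in 129, and Myh8 averaged 6.02 in M19 and 7.57 in 129, while at E13.5 they averaged 7.72 and 6.42 in M19, against 7.86 and 6.16 in 129.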

How the results depend on the processing

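The E13.5 count of 23 called probe sets was 0 in a limma fit on the 4 E13.5 arrays alone, where 731 had an unadjusted p under 0.05, and 44 with the spike-in level as a covariate, an alternative chosen after seeing the data. The spike-in fit kept all 23 and added further ones. Among these were Piwil4 (limma adjusted p = 0.04), Mael (0.0147), Tktl1 (0.00427), Taf7l (0.024), Rrp12 (0.0383) and Pum3 1426932_at (0.0395). Others of chromosome 19 were Gna14 (0.000453), Slc18a2 (0.00671) and Klf9 (0.021), and the list given here is not complete. The count was 17 to 28 under the other settings and 8 to 32 with an array left out, and the higher and lower calls were 4 and 13 with centred arrays. Deviations of same-numbered arrays correlated at 0.249, -0.347 and -0.215 at E13.5, E15.5 and E17.5, so the numbers gave no pairing of the same sign at all stages. With 2 arrays per group, a negative value for same-numbered arrays is a positive one for arrays of unlike number. The replicate block gave 24 calls, and pairs of arrays with unlike numbers were not tested. For chromosome 19 the count of 15 was 0 on the 4 arrays alone, 25 with the spike-in covariate and 6 to 16 with an array left out. The interaction at E15.5, 60 in the fit on all arrays, was 22 with dim probe sets left out, 163 with the spike-in covariate and 28 to 77 with an array left out. That at E17.5, 4 calls, was 2 with quantile normalization or centring, 1 with dim probe sets left out, 12 with the spike-in covariate and 1 to 6 with an array left out. Signs turned with 1 array of 129 at E13.5 left out, without a call. The differences ran from -0.31 to 0.02 for Krt1, -0.31 to 0.19 for Sf1 1423751_at, -0.56 to 0.0037 for Gtsf1 1452967_at, -1.26 to 0.048 for Amh, -0.46 to 0.034 for Cox15 1426693_x_at and -0.53 to 0.12 for Cox15 1452146_a_at over the fits without 1 array; the cause was not tested. The median difference of all representatives was -0.06, and -0.01 with quantile normalization and 8e-05 with centring.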

Other observations

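Several germline genes of the X chromosome, chosen after their values were seen, had lower values in M19 at E13.5 without passing. On the X chromosome 9 genes were lower and 1 higher in M19 beyond 0.5 with no overlap of the arrays, 1.62% of its 618 genes, against 0.456% of genes outside chromosome 19. Tktl1, a relative of transketolase, had 6.14 and 6.10 in M19, against 6.96 and 7.40 in 129 (-1.06 ± 0.18, limma adjusted p = 0.14), and averaged 10.24 in M19 and 10.22 in 129 at E15.5. Dcaf8l had 4.76 and 4.53 in M19, against 5.26 and 6.30 in 129, and Gm364 had 5.62 and 5.60, against 6.28 and 6.87.

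S100a8 and S100a9, calcium-binding proteins of neutrophils, were also chosen after their values were seen. S100a8 had 8.11 and 8.21 in M19, against 8.62 and 8.73 in 129 (-0.51 ± 0.15), and S100a9 had 7.82 and 7.65, against 8.26 and 8.29 (-0.54 ± 0.12); neither passed.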
